A study of Drosophila melanogaster with 18 samples.

Results

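Of the 10844 Drosophila melanogaster genes that a probe set of 1 gene measured in whole embryos, 29 still carried a provisional CG number as their current symbol and fell steeply between the younger and the older control embryos. They were chosen by their control values. Signal under 50 was set to 50, log2 was taken, and each gene was represented by its brightest probe set on average over all 18 arrays. The mean of the 14 to 16 h controls minus that of the 8 to 10 h controls had to be -2.5 or lower. These 29 genes came from 4482 genes with such a symbol. Another 127 genes, with a given name, met the same threshold, which makes 156 genes in all.

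The study altered the E2F and Rb pathway in embryos and measured RNA on 18 Affymetrix arrays in 9 groups of 2. In 4 crosses of 8 to 10 h embryos the Arm-Gal4 driver was combined with UAS transgenes: E2f1 with Dp, E2f2 with Dp, E2f1336-805 (a fragment of E2f1 without its DNA binding domain, which acts as a dominant negative), or Rbf1. A pair of mutant groups at the same age carried the null alleles Dpa2/Dpa4 or E2f17172/E2f191. E2f17172/E2f191 embryos were also taken at 14 to 16 h. The controls, at 8 to 10 h and at 14 to 16 h, were Arm-Gal4 crossed to yw. The mutants descended from stocks balanced with CyO[Kr-GFP] (Dp) or TM3[Kr-GFP] (E2f1), so driver and stock background cannot be told apart from genotype wherever mutants are set against Arm-Gal4 crosses. Mutants without GFP were picked by an automated sorter at 8 to 10 h and by hand at 14 to 16 h. Each RNA sample came from about 200 to 700 embryos of a 2 h collection kept at 25 °C. The labels do not say whether the 2 samples of a group were separate collections, so the spread behind the p-values may be technical. For each p-value and SE that spread was pooled over all 9 groups, controls included, and not taken from the compared groups only. Fewer cells of a type and less RNA per cell cannot be told apart in RNA of whole embryos.

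A CG number is the name a predicted fly gene keeps until a function is published under another name. E2F proteins bind DNA together with Dp. E2f1 activates genes of DNA replication and mitosis, E2f2 represses many E2F targets, and Rbf1, the fly retinoblastoma protein, binds E2f1 and blocks its activity. The younger age falls in germ band retraction, when many cells of the epidermis have left the cell cycle and neuroblasts still divide. By the older age organs differentiate and the larval cuticle is being laid down.

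Values are the deposited signal, in arbitrary linear units, unless a log2 change is named. Array medians lay between 209.15 and 247.75, and replicate arrays correlated at r = 0.925 to 0.962 across probe sets. A stage index built from the 300 named genes with the largest rise and the 300 with the largest fall in controls was scaled to 0 for the mean of the 8 to 10 h controls and 1 for that of the 14 to 16 h controls. By array it was 0.147 to 0.309 in Dp mutants, 0.209 to 0.235 in E2f1 mutants at 8 to 10 h and -0.104 to 0.121 in the 8 arrays of the driver crosses with a transgene. E2f1 mutants at 14 to 16 h had 0.888 and 0.905. The genes of the index were picked on the control arrays that set 0 and 1. That choice by itself favours values above 0 in other 8 to 10 h groups and below 1 in the older mutants.

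The members spanned a wide range of signal in controls. At 14 to 16 h they lay between 9.5 and 638.6, with 6 members under 50 on both arrays and 7 under 50 on 1 array. CG9135, with 432.1 and 430.7, and CG33099, with 638.6 and 401.4, had the highest signal there on their dimmer array, and are named after their values were seen. At 8 to 10 h they lay between 212.9 and 20429, with a median over members of 634.45. Of the 29 members, 22 were higher on replicate 1 of the younger controls than on replicate 2. All 29 are protein coding in the annotation used here.

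**Figure D1:**
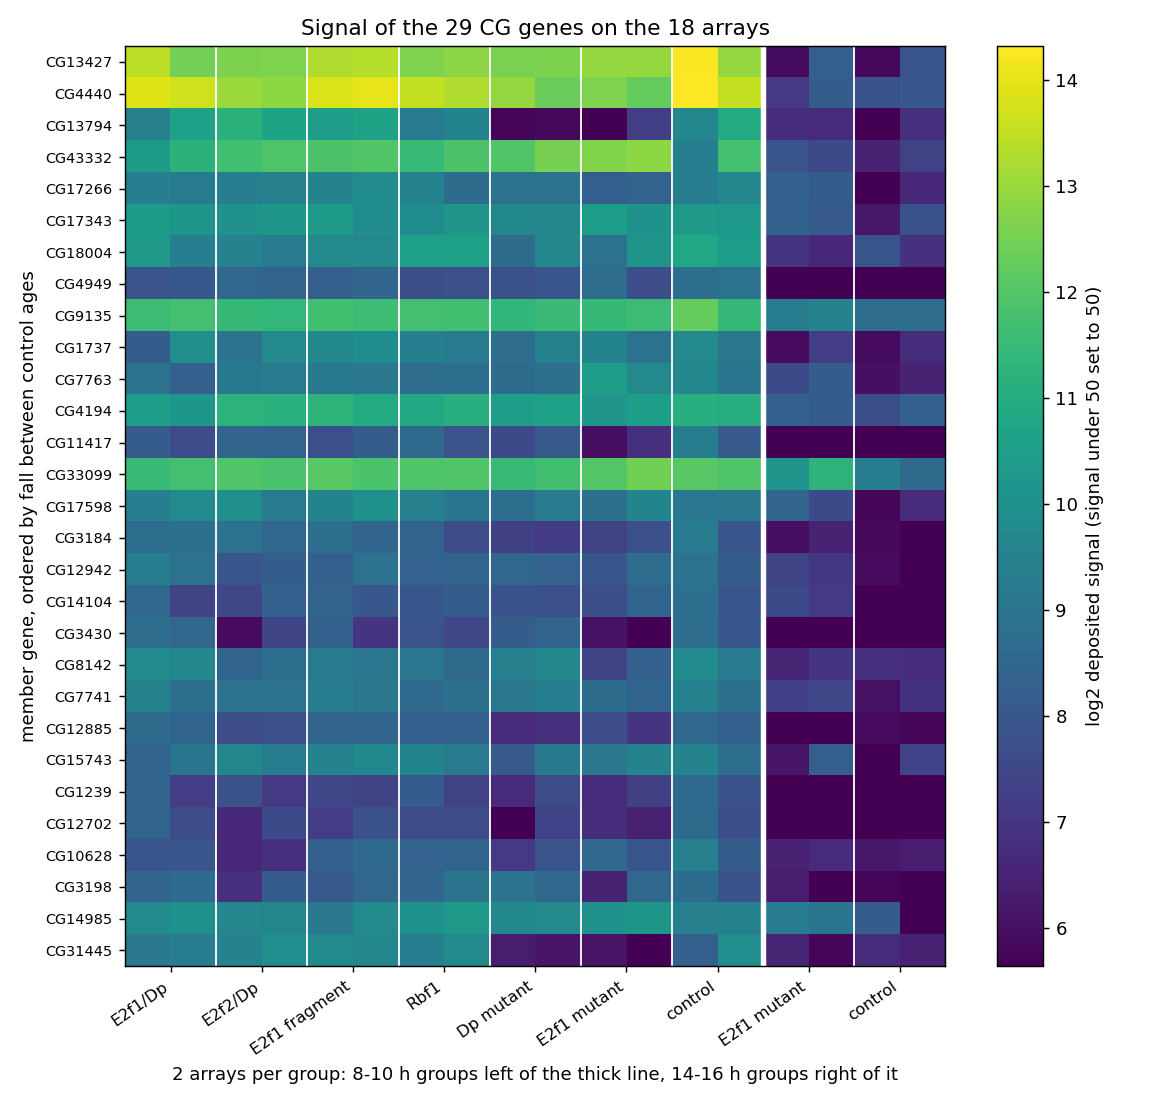
Signal of each of the 29 member genes (rows, ordered by their fall between the control ages) on each of the 18 arrays (columns, 2 per group). The colour gives log2 of the deposited signal, with signal under 50 set to 50. The groups right of the thick line are the 14 to 16 h groups, where most rows are dark. CG13794 and CG31445 are also dark in both mutant groups at 8 to 10 h.

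CG13427 had the steepest fall, by the values that chose it. Its signal was 56.8 and 236.5 in controls at 14 to 16 h, against 19834.3 and 7845.3 in controls at 8 to 10 h, a log2 difference of -6.75 on the scale of the rule. CG4440 had 225.7 and 253.1 in the older controls and 20428.8 and 12150.8 in the younger ones. These are the members with the highest signal in the younger controls, and no array of one age reached the range of the other. CG13794 followed, with 9.5 and 114.2 in the older controls and 809.4 and 1983.9 in the younger ones. CG4440 and CG13794 lie on chromosome arm 2L and CG13427 on 2R.

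Just inside the threshold stood CG3198 at -2.53, CG14985 at -2.53 and CG31445 at -2.52. Just outside it stood CG9257 at -2.498, CG9107 at -2.44 and CG17078 at -2.44. Of these, CG14985 had 291.7 and 43.2 in the older controls and 692.8 and 699.8 in the younger ones, so its place inside the threshold came from 1 array. The younger controls lay apart in CG31445, at 313.1 and 955.8, and in CG3198, at 420.1 and 222.2. The places of these genes thus also leaned on 1 array. The membership moved with single control arrays. Without replicate 2 of the younger controls, 58 genes met the rule, 27 of them members. Without replicate 1 of the younger controls 29 genes met it, 17 of them members. Without replicate 1 or replicate 2 of the older controls 32 and 46 genes met it, with 24 and 26 members among them.

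By position, 10 of the 29 members lie on the X chromosome, or 34.5%, against 18.2% of the CG genes with a known arm and 19.7% of the named genes that met the same threshold. Chromosome arm 2L holds 7 members, 2R holds 6, 3R holds 4, 3L holds 2 and chromosome 4 holds 0. The X-linked members are CG1737, CG3184, CG3198, CG4194, CG4949, CG8142, CG11417, CG12702, CG15743 and CG17598. On 2L lie CG3430, CG4440, CG9135, CG10628, CG13794, CG17343 and CG43332, and on 2R lie CG7741, CG7763, CG12942, CG13427, CG17266 and CG18004. On 3R lie CG1239, CG12885, CG31445 and CG33099, and on 3L lie CG14104 and CG14985. No members were direct neighbours: the closest were CG12942 and CG18004, with 2 protein-coding genes between them, and CG3184 and CG3198, with 6 between them. RefSeq annotation of Drosophila melanogaster lists synonyms that name a function for 4 members. CG8142 appears as rfc4 or RFC2, a subunit of replication factor C, which loads the sliding clamp for DNA polymerase. CG17343 appears as Cdc26, a small subunit of the anaphase-promoting complex. CG17598 appears as PP2C, a class of protein phosphatases, and CG1239 as BCDIN3D, known in mammals as an RNA methyltransferase. No role is given for the other 25 in the tables used here.

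The 4 arrays of E2f1 mutants played no part in the threshold on the fall. They did count, with all other arrays, in picking the brightest probe set, and 2 members had more than 1 probe set. By limma, 17 of the 29 members were lower in E2f1 mutants at 14 to 16 h than in E2f1 mutants at 8 to 10 h (adjusted p under 0.05), while 0 were higher. Across all 8975 units tested, 21.7% were called lower in this comparison. The median log2 change of the members was -1.44, against -0.15 over all units. Among the 127 named genes with the same fall in controls, 111 were called lower (87.4%), with a median of -2.10. Among the other 2803 CG genes tested, 408 were called lower (14.6%). The difference between the members and the named genes was not tested. All 29 members passed the filter on dim probe sets, but they were chosen for a high signal in the younger controls, so passing says nothing more. The 2 ages of mutants were picked in different ways, so age and way of picking cannot be told apart.

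CG13427 had 60.4 and 304.9 in E2f1 mutants at 14 to 16 h, against 7856.3 and 7893.7 in the younger E2f1 mutants. The log2 change was -5.87 ± 0.71 (SE, n = 2 and 2 arrays, limma adjusted p = 2.09e-05), or -4.65 without replicate 1 and -7.09 without replicate 2 of the older mutants. CG43332 had 238.4 and 190.5 in the older mutants and 6532 and 7400.2 in the younger ones, a change of -4.97 ± 0.54 (adjusted p = 8.42e-06). CG4440 had 136.7 and 296.8 in the older mutants and 6438.2 and 4887.3 in the younger ones, a change of -4.78 ± 0.35 (adjusted p = 2.49e-07). In each of these genes every array of the older mutants lay far below every array of the younger ones. Without replicate 1 or replicate 2 of the older mutants, the change of CG4440 was -4.19 or -5.37.

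CG18004 had 123 and 98.8 in the older mutants and 466.3 and 1119.1 in the younger ones, a log2 change of -2.63 ± 0.45 (adjusted p = 0.000337). Leaving out replicate 1 or replicate 2 of the younger mutants moved this to -3.29 or -1.96. CG1737 had 59.9 and 147.3 in the older mutants and 747.1 and 472.1 in the younger ones, a change of -2.61 ± 0.56 (adjusted p = 0.00204). Its change was -1.92 without replicate 1 of the older mutants and -3.30 without replicate 2. CG4949 had 17.9 and 49.5 in the older mutants, where 1 array was at the floor, and 430.4 and 209.3 in the younger ones, a change of -2.47 ± 0.36 (adjusted p = 9.08e-05). A value at the floor understates the change of such a gene. A further probe set of CG4949, dimmer than the one used, changed by -1.03 between the mutant ages and by -1.56 between the control ages, on the log2 scale of the rule. CG33099 is the only other member with a further probe set, which changed by 0.38 between the mutant ages and by -0.28 between the control ages, and so does not show the fall of the probe set that the rule kept.

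The other 11 members called lower had log2 changes between -2.17 for CG7763 and -0.99 for CG8142. Under every setting that tested them, including each left-out array, 12 of the 17 calls remained. CG4949 and CG12885, which are among these, were not tested with the dimmest 50% of probe sets left out. The calls of CG10628, CG15743, CG7741, CG8142 and CG3184 were lost without 1 or more of the 4 mutant arrays. For CG15743 the change was -0.94 without replicate 1 of the older mutants and -3.14 without replicate 2, against -2.04 with all arrays.

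**Figure D2:**
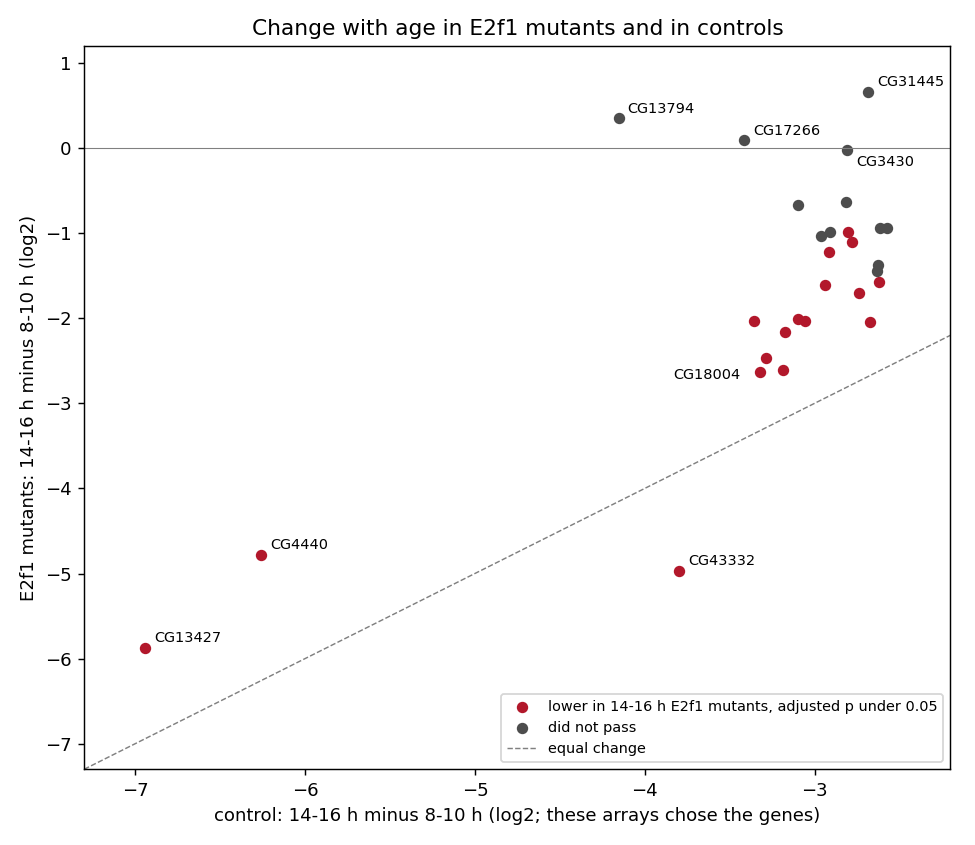
Change of each of the 29 members between 14 to 16 h and 8 to 10 h in E2f1 mutants (vertical axis, log2) against the change between the same ages in controls (horizontal axis, log2), whose arrays chose the genes. Red points passed the test in mutants and grey points did not. CG43332 is the only member below the dashed line of equal change, and CG31445, CG13794 and CG17266 lie above 0 in mutants.

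The test did not call 12 members. Of these, 9 were lower in sign and 3 higher in sign, and the 6 with the least fall divide by their level in the younger mutants. CG31445 had 93.2 and 54 in E2f1 mutants at 14 to 16 h and 68.1 and 13.3 in E2f1 mutants at 8 to 10 h, a log2 change of 0.66 ± 0.42 (adjusted p = 0.241). CG13794 had 107.4 and 105.6 in the older mutants and 49.3 and 152.5 in the younger ones, a change of 0.35 ± 0.57 (adjusted p = 0.678). CG3430 had 20.9 and 22.7 in the older mutants, both at the floor, and 67 and 38.6 in the younger ones, a change of -0.03 ± 0.55 (adjusted p = 0.98). All 3 were already near the bottom of their range in the younger mutants, where 1 array of each was at the floor after normalization. CG11417 had 23.1 and 14 in the older mutants, both at the floor, and 61.9 and 114 in the younger ones, where 1 array was at the floor after normalization, a change of -0.67 ± 0.51 (adjusted p = 0.335).

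In the remaining members of these 6, both arrays of the older mutants lay above both arrays of the older controls. The choice of genes with low older controls favours such a difference. CG17266 had 318.7 and 296.3 in E2f1 mutants at 14 to 16 h and 305 and 341 in E2f1 mutants at 8 to 10 h, a log2 change of 0.09 ± 0.33 (adjusted p = 0.869). In controls it had 37.8 and 100.4 at 14 to 16 h and 626.6 and 816.7 at 8 to 10 h. CG14104 had 189.2 and 137.8 in the older mutants and 212.9 and 355.4 in the younger ones, a change of -0.63 ± 0.48 (adjusted p = 0.332). Its controls had 28 and 20.6 at 14 to 16 h and 454 and 245.3 at 8 to 10 h. An adjusted p that misses the threshold does not show that the levels of these 6 genes were equal at both ages.

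**Figure D3:**
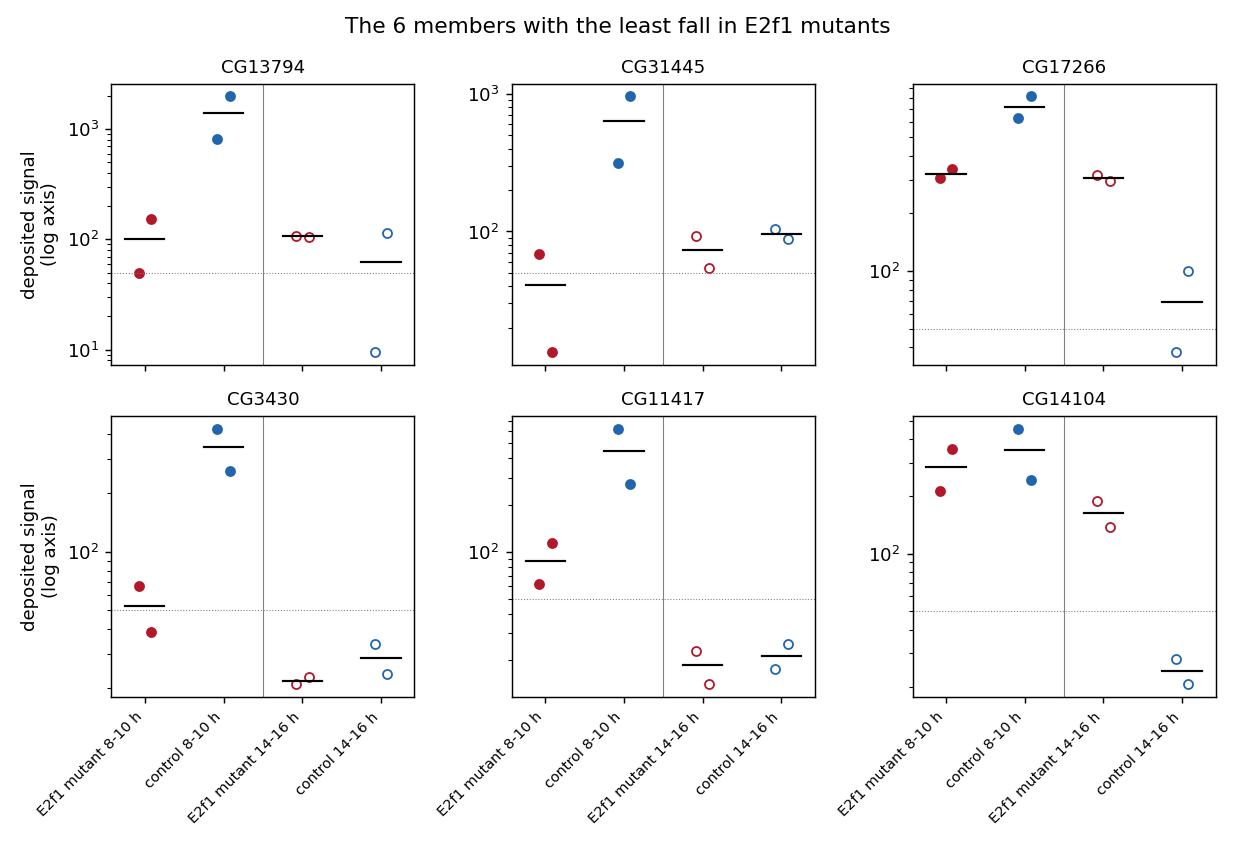
Deposited signal (log axis) of the 6 members with the least fall in E2f1 mutants, in E2f1 mutants (red) and controls (blue) at 8 to 10 h (filled) and 14 to 16 h (open). Points are single arrays, black bars are means of 2 arrays, and the dotted line marks the signal of 50 used as a floor by the rule. CG17266 stays near 300 in mutants of both ages, and CG13794 and CG31445 are low in mutants of both ages.

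Among the 6 manipulated groups at 8 to 10 h, 7 of the 29 members differed by limma's F test (adjusted p under 0.05), where 10.8% of all 8975 units did. They were CG31445, CG13794, CG4440, CG8142, CG12885, CG3430 and CG4194, with adjusted p between 1.43e-05 and 0.0234. Of the named genes with the same fall in controls, 24 of 127 did (18.9%). Without the control arrays in the fit, 12 members were called, the 7 above among them. CG4440 was lost without a filter on dim probe sets (adjusted p = 0.0537), and CG12885 without replicate 1 of the Dp mutants (adjusted p = 0.0559). CG3430 was lost without replicate 1 or 2 of the E2f1 mutants (adjusted p = 0.0553 and 0.0535), and CG4194 without any of 5 single arrays and without the trend in eBayes.

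The Dp and E2f1 mutants as one class were set against the mean of the 4 driver crosses with a transgene. Of the 29 members, 8 were lower in mutants and 0 higher. Across all units 9.38% were called in either direction, 388 lower (4.32%) and 454 higher. The named genes with the same fall had 24 of 127 lower and 0 higher. Of the other CG genes tested, 82 of 2803 were lower and 146 higher. The members and these named genes were chosen for high signal in younger controls, which share the Arm-Gal4 driver with the crosses. That choice may by itself favour lower values in mutants, so the direction is not independent of it. The calls of CG31445, CG13794, CG12885 and CG4440 remained under every setting that tested them, which for CG12885 does not include leaving out the dimmest 50% of probe sets. Those of CG3184, CG17266, CG11417 and CG4194 did not.

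CG31445 had 79.9 and 72.7 in Dp mutants and 68.1 and 13.3 in E2f1 mutants, against 549.8 to 962.7 in the 8 arrays of the driver crosses. The log2 change was -3.59 ± 0.26 (SE, n = 4 and 8 arrays, limma adjusted p = 4.59e-07). CG13794 had 55.1 and 57.1 in Dp mutants and 49.3 and 152.5 in E2f1 mutants, against 610.6 to 2359.7 in the driver crosses, a change of -4.10 ± 0.35 (adjusted p = 3.5e-06). In these 2 members each of the 4 mutant arrays was below each of the 8 driver-cross arrays. How many of all units were separated in this way was not counted, so this describes the 2 genes only. In each of them 1 E2f1 mutant array was at the floor after normalization. Their signal in both mutants at 8 to 10 h was as low as in controls at 14 to 16 h, where CG31445 had 103.6 and 88.2 and CG13794 had 9.5 and 114.2. The Dp and E2f1 mutants come from different balanced stocks, carry different alleles and lack the Arm-Gal4 driver of all other groups at that age.

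CG12885 had 105 and 114.8 in Dp mutants and 206.9 and 127 in E2f1 mutants, against 205.7 and 218.6 in E2f2/Dp embryos and 303.7 to 401.1 in the other 3 driver crosses. Its log2 change was -1.22 ± 0.21 (adjusted p = 0.00208), and replicate 1 of the E2f1 mutants lay in the range of E2f2/Dp embryos. CG4440 had 7864.8 and 5135.6 in Dp mutants and 6438.2 and 4887.3 in E2f1 mutants, against 8333.5 and 7340.9 in E2f2/Dp embryos and 10077.8 to 16363.6 in the other driver crosses. Its change was -1.22 ± 0.22 (adjusted p = 0.00246), with replicate 1 of the Dp mutants above replicate 2 of E2f2/Dp. In both genes E2f2/Dp embryos had the lowest signal of the driver crosses.

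The smaller changes overlapped between arrays or depended on single arrays, and 1 E2f1 mutant array of CG11417 was at the floor. CG11417 had 194.2 and 275.1 in Dp mutants and 61.9 and 114 in E2f1 mutants, against 201 to 388.2 in the driver crosses, a change of -1.14 ± 0.31 (adjusted p = 0.0312, or 0.164 without replicate 1 of the E2f1 mutants). CG17266 had 481.7 and 478.4 in Dp mutants and 305 and 341 in E2f1 mutants, against 418.2 to 901.1 in the driver crosses, a change of -0.78 ± 0.20 (adjusted p = 0.0231, or 0.0905 without replicate 1 of the Dp mutants). CG4194 had 1470.2 and 1577.8 in Dp mutants and 1151.8 and 1450.5 in E2f1 mutants, a change of -0.46 ± 0.13 (adjusted p = 0.0438, or 0.181 without replicate 1 of the E2f1 mutants). Its driver crosses were split, with 1418.6 and 1183 in E2f1/Dp embryos and 1887.5 to 2522.7 in the others. CG3184, the eighth, changed by -1.19 ± 0.27 (adjusted p = 0.0117, or 0.0618 without replicate 1 of the E2f1 mutants).

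Of 8 marker lists, the replication list and the E(spl) and Bearded family list had sums in both mutants that did not overlap those of the driver crosses at this age. The summed signal of a replication list, with 9 of 11 genes measured, was 6710 to 7716 in Dp mutants and 3923 to 4099 in E2f1 mutants, against 9666 to 23767 in the driver crosses. A yolk and fat body list, with 5 of 5 genes measured, summed to 2473 to 3471 in Dp mutants and 1185 to 1964 in E2f1 mutants, against 569 to 1430 in the driver crosses. A haemocyte list, with 6 of 6 measured, summed to 1758 to 1823 in Dp mutants and 1503 to 1910 in E2f1 mutants, against 738 to 1509. For the E(spl) and Bearded family list, with 12 of 15 measured, the sums were 35400 to 39982 in Dp mutants and 40303 to 40920 in E2f1 mutants, against 42248 to 59164. A cuticle list, with 9 of 9 measured, summed to 18578 to 20772 in Dp mutants and 20826 to 27533 in E2f1 mutants, against 8849 to 20569. The sums of the yolk and fat body, haemocyte and cuticle lists were mostly higher in mutants, with some overlap. A neuroblast list, with 9 of 10 measured, had 12289 to 13059 in Dp mutants and 10938 to 10958 in E2f1 mutants, against 10405 to 15121. A muscle list, with 7 of 10 measured, had 18089 to 40356 in Dp mutants and 16215 to 18714 in E2f1 mutants, against 2432 to 25746. A germ line list, with 4 of 5 measured, had 558 to 637 in Dp mutants and 734 to 813 in E2f1 mutants, against 648 to 881. In each list 0 measured genes were under 50 on all 18 arrays. The part of the stage index and of these lists in the changes of the members was not tested.

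Loss of E2f1 against a gain of E2f1 with Dp, both at 8 to 10 h, called 6 of the 29 members. In E2f1 mutants 5 were lower and 1 higher. Across all units 3.36% were called, 165 lower (1.84%) and 137 higher. The choice of members on Arm-Gal4 controls may favour lower values in mutants here too. Of the 6 members called, only CG13794 and CG31445 remained called under every setting. Their log2 changes by limma were -3.57 ± 0.57 (adjusted p = 0.00249) and -3.55 ± 0.42 (adjusted p = 0.000159). In both, and in CG3430, 1 E2f1 mutant array was at the floor. The change of CG13794 moved between -2.70 without replicate 1 and -4.44 without replicate 2 of the E2f1 mutants. It was -4.18 without replicate 1 and -2.95 without replicate 2 of the E2f1/Dp embryos. Without replicate 1 of the E2f1 mutants, or without replicate 1 of the E2f1/Dp embryos, 3 members were called.

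CG8142, the replication factor C gene, had 173.1 and 312.6 in E2f1 mutants and 905.4 and 809.1 in E2f1/Dp embryos. The log2 change was -1.93 ± 0.33 (adjusted p = 0.0045, or 0.0666 without replicate 1 of the E2f1 mutants and 0.0505 without replicate 1 of the E2f1/Dp embryos). Its signal was 682.7 and 809.7 in Dp mutants, inside the range of the controls of the same age, 864 and 604.9. CG3430 had 67 and 38.6 in E2f1 mutants and 424.2 and 364 in E2f1/Dp embryos, a change of -2.98 ± 0.55 (adjusted p = 0.00686, or 0.0639 without replicate 1 of the E2f1/Dp embryos). CG4440 changed by -1.65 ± 0.35 (adjusted p = 0.017), and was not called without replicate 1 of the E2f1/Dp embryos or without either array of the E2f1 mutants (adjusted p = 0.152, 0.0581 and 0.129). CG7763 was the member that was higher in E2f1 mutants, with 1467.2 and 838.2 there and 476.3 and 315.3 in E2f1/Dp embryos, a change of 1.58 ± 0.36 (adjusted p = 0.021, or 0.244 without replicate 1 of the E2f1 mutants and 0.131 without replicate 2 of the E2f1/Dp embryos).

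E2f1 mutants against Dp mutants, which were picked by the same sorter, called CG8142 and CG3430, or 2 of the 29 members, where 0.992% of all units were called. CG8142 was lower in E2f1 mutants by a log2 change of -1.73 ± 0.33 (adjusted p = 0.0207). CG3430 had 67 and 38.6 in E2f1 mutants, where 1 array was at the floor, and 297.4 and 352.5 in Dp mutants. Its change was -2.69 ± 0.55 (adjusted p = 0.0283). In both genes the arrays of the 2 mutants did not overlap. Neither call remained without replicate 1 of the E2f1 mutants, where adjusted p = 0.22 for CG8142 and 0.177 for CG3430. Neither remained without replicate 1 of the Dp mutants (adjusted p = 0.106 and 0.148) or without replicate 2 (adjusted p = 0.0927 and 0.107). CG7763, at 421.3 and 463.5 in Dp mutants, was not called in this comparison (adjusted p = 0.074). The replication list named above was also lower in E2f1 mutants than in Dp mutants, and its part in these changes was not tested.

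**Figure D4:**
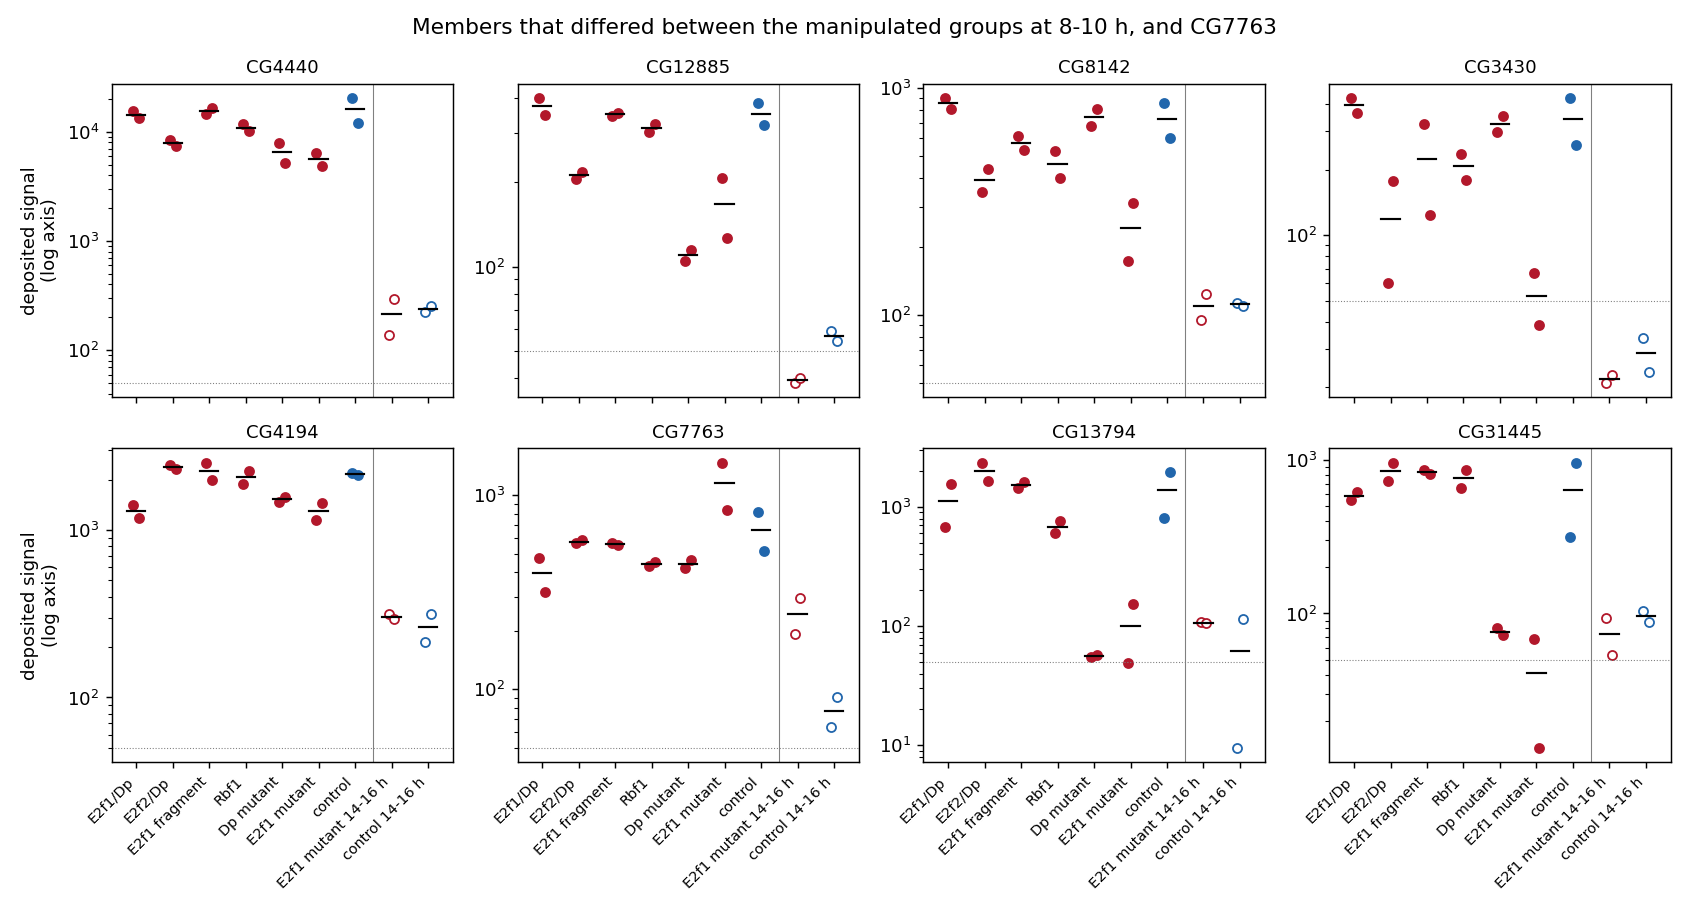
Deposited signal (log axis) in all 9 groups for the 7 members that differed among the 6 manipulated groups at 8 to 10 h and for CG7763. Points are single arrays, black bars are means of 2 arrays, controls are blue, other groups red, and open points right of the vertical line are 14 to 16 h groups. CG13794 and CG31445 are low in both mutants, and CG7763 is highest in E2f1 mutants. CG8142 and CG3430 are lower in E2f1 mutants than in Dp mutants. CG3430 is also low in E2f2/Dp embryos, at 60.3 and 177.3.

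Of the pairs of driver crosses, E2f1/Dp was set against E2f2/Dp and against the fragment, and neither comparison called a member. E2f1/Dp against E2f2/Dp called 0 of 29 by limma, where 0.301% of all units were called. An unadjusted p under 0.05 was found in 7 members, in 28 of the 127 named genes with the same fall and in 1074 of the 8975 units. The smallest adjusted p was 0.0911, for CG4194, with 1418.6 and 1183 after E2f1/Dp and 2451 and 2318 after E2f2/Dp expression, a log2 change of -0.92 ± 0.22. CG3430 had the largest difference, 424.2 and 364 after E2f1/Dp and 60.3 and 177.3 after E2f2/Dp expression, a change of 1.94 ± 0.55 (adjusted p = 0.147). CG10628 had 240.9 and 243.6 after E2f1/Dp and 97.6 and 115.9 after E2f2/Dp expression, the lowest of the 8 to 10 h groups, a change of 1.19 ± 0.43 with an unadjusted p of 0.0144 by limma. These arrays did not overlap, but the differences did not pass the adjustment.

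E2f1/Dp against the E2f1 fragment called 0 of 29 members, where 2.4% of all units were called. An unadjusted p under 0.05 was found in 1056 of the 8975 units, in 12 of the 127 named genes with the same fall and in 1 member. That member was CG4194, with 2522.7 and 1975.8 in embryos with the fragment and the values above in E2f1/Dp embryos, a log2 change of -0.80 ± 0.22 (adjusted p = 0.0788). Both comparisons share the E2f1/Dp arrays.

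Against the controls of the same age the members' values are a description, since those arrays chose them and a gene picked for high younger controls and low older controls leans one way in every such difference. The median log2 difference from the 8 to 10 h controls was -0.16 with E2f1 and Dp, -0.29 for the E2f2/Dp cross, -0.0047 in embryos with the E2f1 fragment and -0.24 in Rbf1 embryos. It was -0.59 in Dp mutants and -0.72 in E2f1 mutants. A difference of -1 or lower was found in 6 of 29 members with E2f2/Dp, in 1 with Rbf1, and in 0 with E2f1/Dp and with the fragment. Among all units 3.54% were as low with E2f2/Dp and 4.56% with Rbf1, and among the named genes with the same fall 13.4% and 8.66%. With E2f1/Dp and with the fragment, 2.96% and 4.95% of all units were as low, and 0.787% of these named genes in each group. A difference of this size was found in 11 members in Dp mutants and in 12 in E2f1 mutants. Among all units, 4.17% and 5.78% were as low in the Dp and E2f1 mutants, and among the named genes with the same fall 20.5% and 27.6%.

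CG43332 had differences above 0 from the younger controls in all 6 groups of that age, but no test among those groups called it in the main setting. It had 4026.8 and 5991.5 in Dp mutants and 6532 and 7400.2 in E2f1 mutants, and the 8 arrays of the driver crosses lay between 1336.3 and 4023.8. The log2 change of the mutants against the driver crosses was 0.96 ± 0.33 (adjusted p = 0.0825), and that of E2f1 mutants against E2f1/Dp embryos was 1.97 ± 0.54 (adjusted p = 0.0627). The 8 to 10 h controls had 670.5 and 3393.6, which lie far apart. Its differences from those controls were 1.71 in Dp mutants and 2.22 in E2f1 mutants, and 0.24 in E2f1/Dp embryos. The control arrays also entered the pooled spread behind the p-values above. With them left out of the fit, mutants against driver crosses called 9 members instead of 8. E2f1 mutants against E2f1/Dp embryos then called 8 instead of 6, and the F test 12 instead of 7. Whether CG43332 was among the added members is not given here. For its change with age in E2f1 mutants, the limma adjusted p was 1.04e-07 without the control arrays and 8.42e-06 with them.

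At 14 to 16 h, 22 members were higher in E2f1 mutants than in the controls, 4 were lower and 3 were at the floor in both, with a median log2 difference of 0.46 against 0.06 over all units. Of the 29 members, 10 were higher by 1 or more (34.5%), as were 18.1% of the named genes with the same fall and 4.03% of all units. CG14985 had the largest difference, with 584.2 and 518.5 in E2f1 mutants and 291.7 and 43.2 in controls, a log2 difference of 2.36, with the 2 control arrays far apart. CG17266 had 2.29 and CG14104 had 1.83 with the array values given above, and in both the arrays of mutants and controls did not overlap. The stage index of these mutants was below that of the older controls, which the choice of its genes on those controls favours. The part of the index in the differences was not tested.

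**Figure D5:**
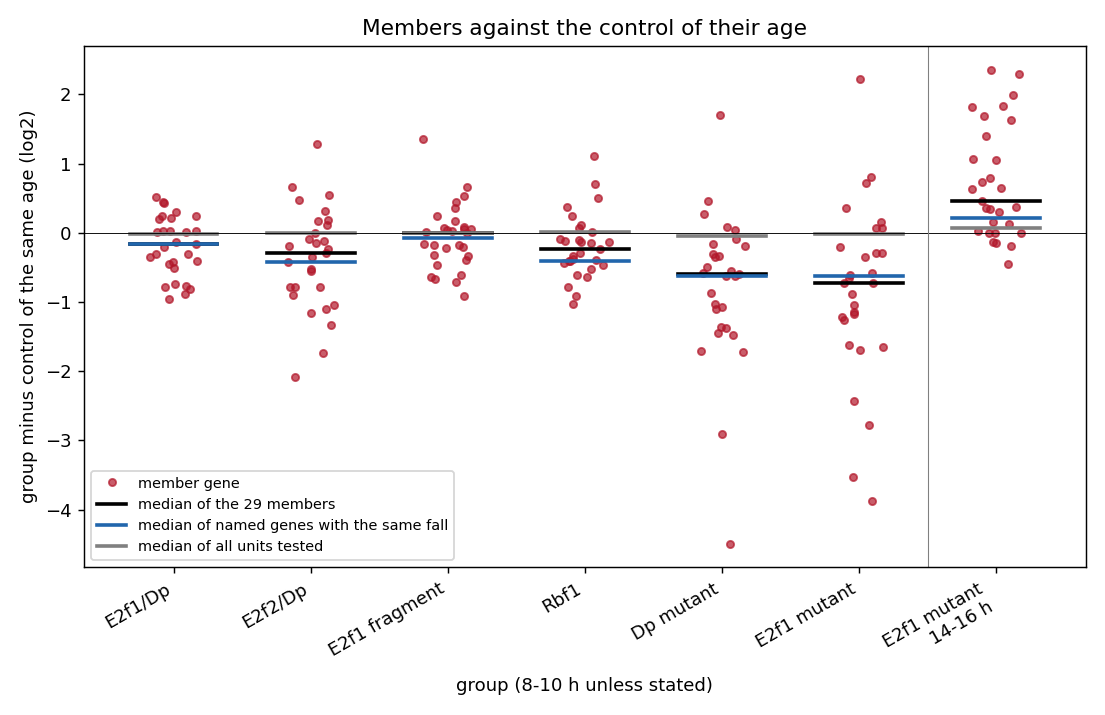
Log2 difference of each of the 29 members (points) between a group and the control of the same age. Lines give the median of the members (black), of the 127 named genes with the same fall (blue) and of all 8975 units (grey). Members centre on -0.59 and -0.72 in the Dp and E2f1 mutants at 8 to 10 h and on 0.46 in the E2f1 mutants at 14 to 16 h.

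The members with a function in their synonyms, named here for that reason, had different patterns. CG17343, the Cdc26 gene, had 322.8 and 274.9 in E2f1 mutants at 14 to 16 h and 1467 and 1104.7 in E2f1 mutants at 8 to 10 h, a log2 change of -2.03 ± 0.39 (adjusted p = 0.000972). At 8 to 10 h its signal lay between 816.3 in Dp mutants and 1467 in E2f1 mutants, and it was not called in any comparison among the manipulated groups of that age. CG17598, the PP2C gene, had 351.3 and 193.7 in the older mutants and 457.1 and 759.8 in the younger ones, a change of -1.03 ± 0.40 that did not pass (adjusted p = 0.0591). CG1239, the BCDIN3D gene, had 33.4 and 28.4 in the older mutants, both at the floor, and 107.7 and 155.1 in the younger ones, a change of -1.37 ± 0.55 (adjusted p = 0.0667). CG8142 had 94.7 and 123.5 in the older mutants and 173.1 and 312.6 in the younger ones, a change of -0.99 ± 0.33 (adjusted p = 0.0313, or 0.31 without replicate 2 of the younger mutants). Of these 4 genes, CG8142 alone was called in a comparison between manipulated groups at 8 to 10 h.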

How the data were processed

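RNA of whole embryos was measured on 18 arrays, 2 per group. The authors deposited linear intensity per probe set, with a trimmed mean of 495.4 to 497.5 on every array. Probe summary software is not given in the sources used here. Detection calls did not enter any step, and the number of arrays limits the precision.

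The platform annotation gives 1 gene for 12443 of 13966 probe sets, several for 327 and none for 1196, with symbols updated through RefSeq (49 symbols kept as given). The members, the lists and the rule for genes named with values were chosen with earlier results of these data known. That rule took the largest falls, the genes next to the threshold, the largest and least changes with age in mutants, the 10 smallest p of the F test and the largest called changes of each contrast.

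For the tests, quantile normalization was applied to the arrays, the 20th percentile (signal 47.5) served as a floor, log2 was taken, the 30% dimmest probe sets were left out and the brightest probe set per gene was kept, giving 8975 units. Group means of all 18 arrays were fitted in R 4.3.3 with limma 3.58.1 (eBayes with trend), and two-sided p-values were Benjamini-Hochberg adjusted over the units of each of 7 comparisons, with a threshold of 0.05. Comparisons with control arrays got no test. Alternatives changed scaling, floor, filter, probe sets, eBayes options, arrays in the fit and single arrays. Promoter and protein sequences were not analysed here.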

Additional observations from a re-analysis of the deposited data

Results flagged for a closer look

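In 4 members the difference between E2f1 mutants and controls had opposite signs at the 2 ages, on all arrays: both mutant arrays were above both control arrays at 14 to 16 h and below both at 8 to 10 h, in deposited signal. The same held for 30 of the 127 named genes with the same fall in controls (23.6%) and for 4.6% of all 8975 units, against 13.8% of the members. The difference between the ages was not tested. The members were selected on control arrays that are high at 8 to 10 h and low at 14 to 16 h, which by itself pulls the difference from controls down at the younger age and up at the older one. In CG17266 the log2 difference between mutants and controls was 2.29 at 14 to 16 h and -1.21 at 8 to 10 h, which is 3.50 apart. In CG3184 it was 0.65 at 14 to 16 h and -1.05 at 8 to 10 h, 1.70 apart. In CG12702 it was 0.03 and -1.65, 1.68 apart, but all 4 older arrays were under 50, so the sign at that age is read from values under the floor of the rule. In CG7741 it was 1.06 and -0.61, 1.67 apart. CG3184, CG12702 and CG7741 are named here after their values were seen.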

How the results depend on the processing

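The number of members was 13 with the floor at 100, 45 with it at 25, 92 at a threshold of -2 and 13 at -3, 33 on quantile normalized signal, and 29 to 58 without single control arrays. Over left-out arrays, members called numbered 13 to 17 for age in E2f1 mutants, 5 to 8 for the F test, 3 to 6 for E2f1 mutants against E2f1/Dp, 0 to 2 for E2f1 against Dp mutants and 4 to 8 for mutants against driver crosses. E2f1/Dp against E2f2/Dp and against the fragment called 0 without any array. Without the control arrays in the fit, the F test called 12 and E2f1/Dp against the fragment 1, and with only the compared groups the F test called 12 and E2f1 against Dp mutants 0. E2f1 against Dp mutants called 1 with median centring and 1 with the dimmest 50% left out, where mutants against driver crosses called 5. The cause of these shifts was not tested, except that the 50% filter leaves 19 members.

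Over all units, the groups alone gave 129 against 302 calls for E2f1 mutants against E2f1/Dp, 42 against 215 for E2f1/Dp against the fragment, 6 against 27 for E2f1/Dp against E2f2/Dp and 3 against 89 for E2f1 against Dp mutants. Without trend, the F test gave 642 against 973 calls and E2f1/Dp against E2f2/Dp gave 9, and median centring gave 16 for E2f1/Dp against E2f2/Dp and 59 for E2f1 against Dp mutants.

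Members called in the main setting gave 709 values of single genes under alternatives. Of these, 628 kept the call, 81 lost it and 0 changed sign. Members that gained a call under an alternative are not part of this count. Replicate numbers showed no clear pairing of the samples. Over 36 pairs of groups the correlation of deviations ran from -0.16 to 0.15, with a median of 0.008, and 4 pairs exceeded 0.1. This does not show that pairing was absent in every group. With the replicate number as a block, limma called 17, 7, 7, 0, 0, 2 and 8 members in the 7 comparisons, and CG4194 lost its call in mutants against driver crosses (adjusted p = 0.0511).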
